A study of Homo sapiens with 18 samples.

Results

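The S100 genes encode small calcium-binding proteins, and 10 of them were followed here by gene symbol in RNA-seq of 6 ovarian cancer cell lines: S100A1, S100A2, S100A4, S100A6, S100A9, S100A10, S100A11, S100A14, S100A16 and S100P. Of these, 8 had a row in the deposited table of 12853 genes, and S100A1 and S100P were not analysed here. The lines form 3 pairs of a platinum-sensitive and a platinum-resistant line, each with 3 replicate libraries (18 in all) of ribosomal RNA-depleted total RNA. A2780 is a sensitive line that the labels call an endometrial/ovarian cancer line, and CP70 is its resistant derivative obtained in vitro. PEA1 (sensitive) and PEA2 (resistant) came from ascites of 1 patient with high-grade serous ovarian cancer (HGSOC). Per the paper, PEA1 was taken before platinum chemotherapy and PEA2 at relapse with resistant disease. PEO1 (sensitive) and PEO4 (resistant) came from 1 patient with HGSOC, before and after resistance was seen in the clinic. Both PEO lines were taken after platinum-based chemotherapy, so only the PEA pair also differs in earlier exposure to it. No line was given a drug for these libraries as far as the labels state, and all were grown in the same serum-containing medium. Each comparison asks how a resistant line differs from its sensitive counterpart. A pair is 1 line against 1 line, so a difference within it belongs to those lines, and no source says that the replicates were separate cultures.

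S100 proteins carry a pair of EF-hand calcium-binding loops, usually work as dimers, and change shape on binding calcium so that they can grip a partner such as an annexin or a myosin. Some act inside the cell on the cytoskeleton and the plasma membrane, some are secreted and bind cell surface receptors, and S100A10 is known for having lost calcium binding. Most of the human genes sit together on chromosome 1 next to the genes of the epidermal differentiation complex, and several are known as markers of epithelial tumours.

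The S100 genes did not move as a group between sensitive and resistant lines: which gene differed, and in which direction, depended on the pair. CP70 had more S100A10 and S100A2 than A2780 and less S100A11. PEA2 had more S100A14, S100A9, S100A4 and S100A6 than PEA1. PEO4 had more S100A2 and less S100A9 than PEO1. These are the genes with an absolute log2 fold change (log2FC, resistant minus sensitive, on the scale of log2 CPM, reads per 1e6 reads of a library, with 0.5 reads added) above 2 and a false discovery rate (FDR) below 0.05.

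Counted at an FDR below 0.05 alone, 5 of 8 S100 genes passed in the A2780 pair, where 39.9% of all genes passed. The PEA pair gave 6 of 8, against 61.9% of all genes, and the PEO pair 4 of 8, against 41.5%. With 8 genes and shares of all genes this large, these counts are not read as a departure from the background. With the limit on log2FC added, 3 of 8 passed for CP70 (9.06% of all genes), 4 of 8 for PEA2 (14.1%) and 2 of 8 for PEO4 (6.22%). Over the 8 genes the log2FC had a median of 0.47 for CP70 against A2780, 1.78 for PEA2 against PEA1 and -0.04 for PEO4 against PEO1, beside medians over all genes of -0.02, 0.01 and -0.02. In the A2780 pair 3 of the 8 genes (S100A9, S100A14 and S100A16) had at most 3 reads in every library of both lines, so their log2FC carried little information.

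**Figure D1:**
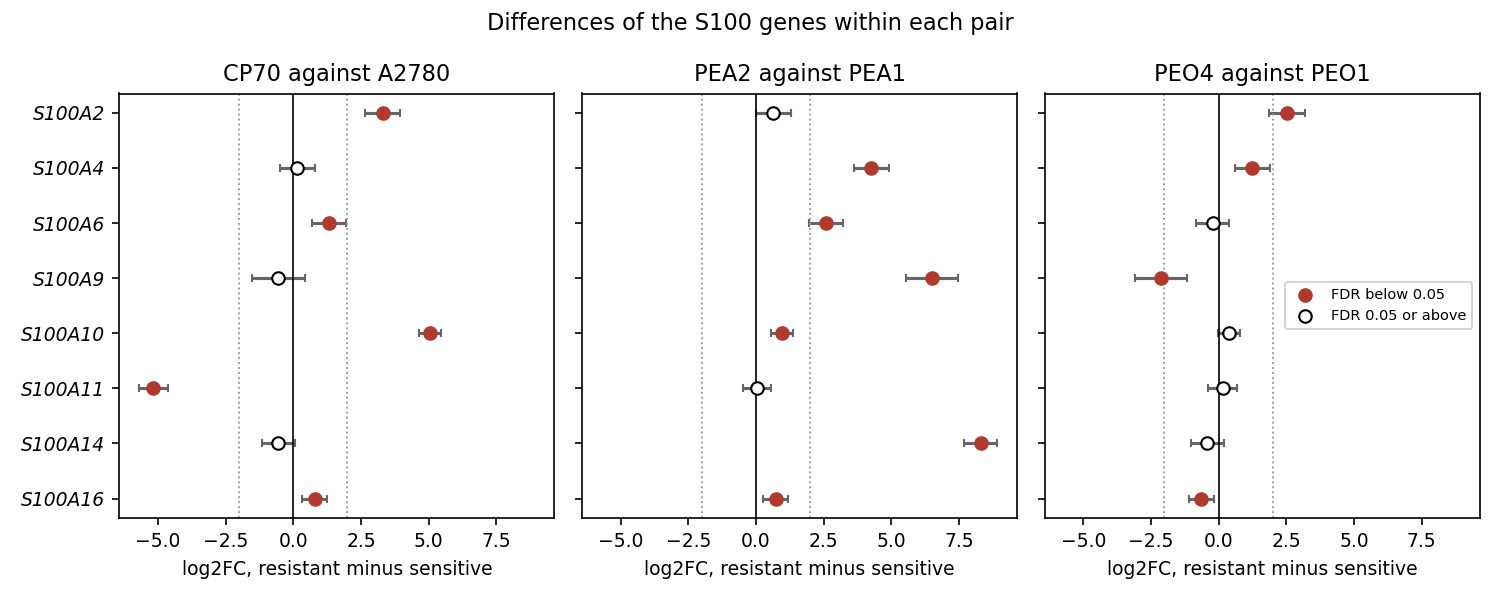
Log2FC of the 8 S100 genes (rows) in each pair, with 95% intervals from the fit, n = 3 libraries per line. Filled points have an FDR below 0.05, and dotted lines mark a log2FC of -2 and 2. S100A10 and S100A11 lie at opposite ends in CP70 against A2780, at 5.06 and -5.17, while S100A14 and S100A9 reach 8.31 and 6.50 in PEA2 against PEA1.

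All 8 genes lie on chromosome 1 (GRCh37), 7 of them on the minus strand. S100A10 (chr1:151955391-151966335) and S100A11 (chr1:152004982-152020383) are neighbours with 38.6 kb between them. S100A9 (chr1:153330330-153333499), on the plus strand, lies 1310 kb farther on. The other 5 follow within a short stretch: S100A6 (chr1:153507075-153508720), S100A4 (chr1:153516089-153522612), S100A2 (chr1:153533584-153540366), S100A16 (chr1:153579362-153585621) and S100A14 (chr1:153586731-153589462). S100A16 and S100A14 are separated by 1.11 kb, and S100A6 and S100A4 by 7.37 kb. The reference transcripts have 3 exons each, except S100A14 with 4. S100A4 overlaps S100A3 on the same strand, and S100A6 and S100A11 each overlap a long noncoding RNA on the opposite strand. The table had no row for these overlapping genes. S100A11 also has 8 annotated processed pseudogenes, with which its reads could be shared.

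The 250 bases before the start of 4 of these genes are shown, picked for unlike promoter classes and large differences. S100A10 and S100A11 are neighbours that moved in opposite directions in CP70. S100A4 and S100A14 were far higher in PEA2. S100A9 and S100A6, also higher in PEA2 past both limits, are not shown. A link between promoter class and difference was not tested with the 4 windows. They are given 5' to 3' on the gene's strand from RefSeq (GRCh38.p14, minus strand), at chr1:151993860-151994109 for S100A10, chr1:152037005-152037254 for S100A11, chr1:153545807-153546056 for S100A4 and chr1:153616326-153616575 for S100A14. Capitals mark a GC box (GGGCGG, searched on both strands) or a TATA match (TATAA, searched on the gene's strand in the last 60 bases).
S100A10: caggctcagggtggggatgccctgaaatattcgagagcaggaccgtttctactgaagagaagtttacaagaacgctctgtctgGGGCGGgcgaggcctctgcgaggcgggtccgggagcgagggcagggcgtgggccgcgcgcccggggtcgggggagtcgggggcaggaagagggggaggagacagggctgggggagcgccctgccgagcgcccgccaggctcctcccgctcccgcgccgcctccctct
S100A11: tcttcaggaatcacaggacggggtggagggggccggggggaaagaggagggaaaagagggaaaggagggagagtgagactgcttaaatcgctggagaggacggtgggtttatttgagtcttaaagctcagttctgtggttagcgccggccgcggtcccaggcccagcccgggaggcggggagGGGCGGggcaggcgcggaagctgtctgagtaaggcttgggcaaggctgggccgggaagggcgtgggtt
S100A4: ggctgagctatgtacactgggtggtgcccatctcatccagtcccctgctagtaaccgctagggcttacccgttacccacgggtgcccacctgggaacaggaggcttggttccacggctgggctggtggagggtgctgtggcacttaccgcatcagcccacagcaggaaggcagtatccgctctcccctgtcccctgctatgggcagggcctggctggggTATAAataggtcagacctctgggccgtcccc
S100A14: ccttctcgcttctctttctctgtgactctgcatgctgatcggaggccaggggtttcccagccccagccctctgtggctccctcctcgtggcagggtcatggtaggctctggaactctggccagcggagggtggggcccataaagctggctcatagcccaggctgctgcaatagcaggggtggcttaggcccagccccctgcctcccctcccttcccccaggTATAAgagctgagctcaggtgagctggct

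CpG dinucleotides set the first 2 apart from the last 2. The observed to expected CpG ratio was 0.786 for S100A10 and 0.741 for S100A11, and 0.803 for S100A6, whereas it was 0.284 for S100A4, 0.161 for S100A14 and 0.21 for S100A9. S100A2 and S100A16 have 2 starts each in RefSeq, and their ratios ranged from 0.0496 to 0.305. Of 35116 promoters of the same length, 47.5% had a ratio above 0.6. The S100A10 and S100A11 windows each held 1 GC box, as did S100A9 and 1 of the 2 S100A16 windows, and S100A6 held 3. A GC box was found in 42.6% of all promoters. A TATAA match in the last 60 bases was present for S100A4, S100A14, S100A6, S100A9 and S100P, against 5.13% of all promoters. The AP-1 motif TGAGTCA, on either strand, occurred in 1 of the 2 S100A2 windows and in 4.2% of all promoters. RefSeq gave a promoter for all 10 listed genes.

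The depth was modest, at 1344098 to 7067336 reads on listed genes per library, and the PEA1 libraries were the shallowest. A count of 0 allows up to 3 reads, which is 0.452 to 2.18 CPM depending on the library, and these limits cover counting error only. Replicate 3 of PEO1, the deepest library, stood apart from its replicates: the chi-square per degree of freedom of read counts was 13.5 and 11.3 against the other PEO1 libraries, which gave 1.74 between themselves. Without it, 3 rather than 4 S100 genes passed the FDR in the PEO pair, and again 2 passed both limits. The FDR count was also 3 without PEO1 replicate 1, PEO1 replicate 2 or PEO4 replicate 2. Between replicates 1 and 2 of A2780 the chi-square per degree of freedom was 9.37. Of 12 ovarian epithelial markers, 11 had at most 3 reads in every A2780 library, and EPCAM had 2 to 5 reads. In CP70 the number was 8, in PEA1 3 (KRT7, KRT19 and MSLN), in PEA2 0, and in PEO1 and PEO4 1 (SOX17).

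**Figure D2:**
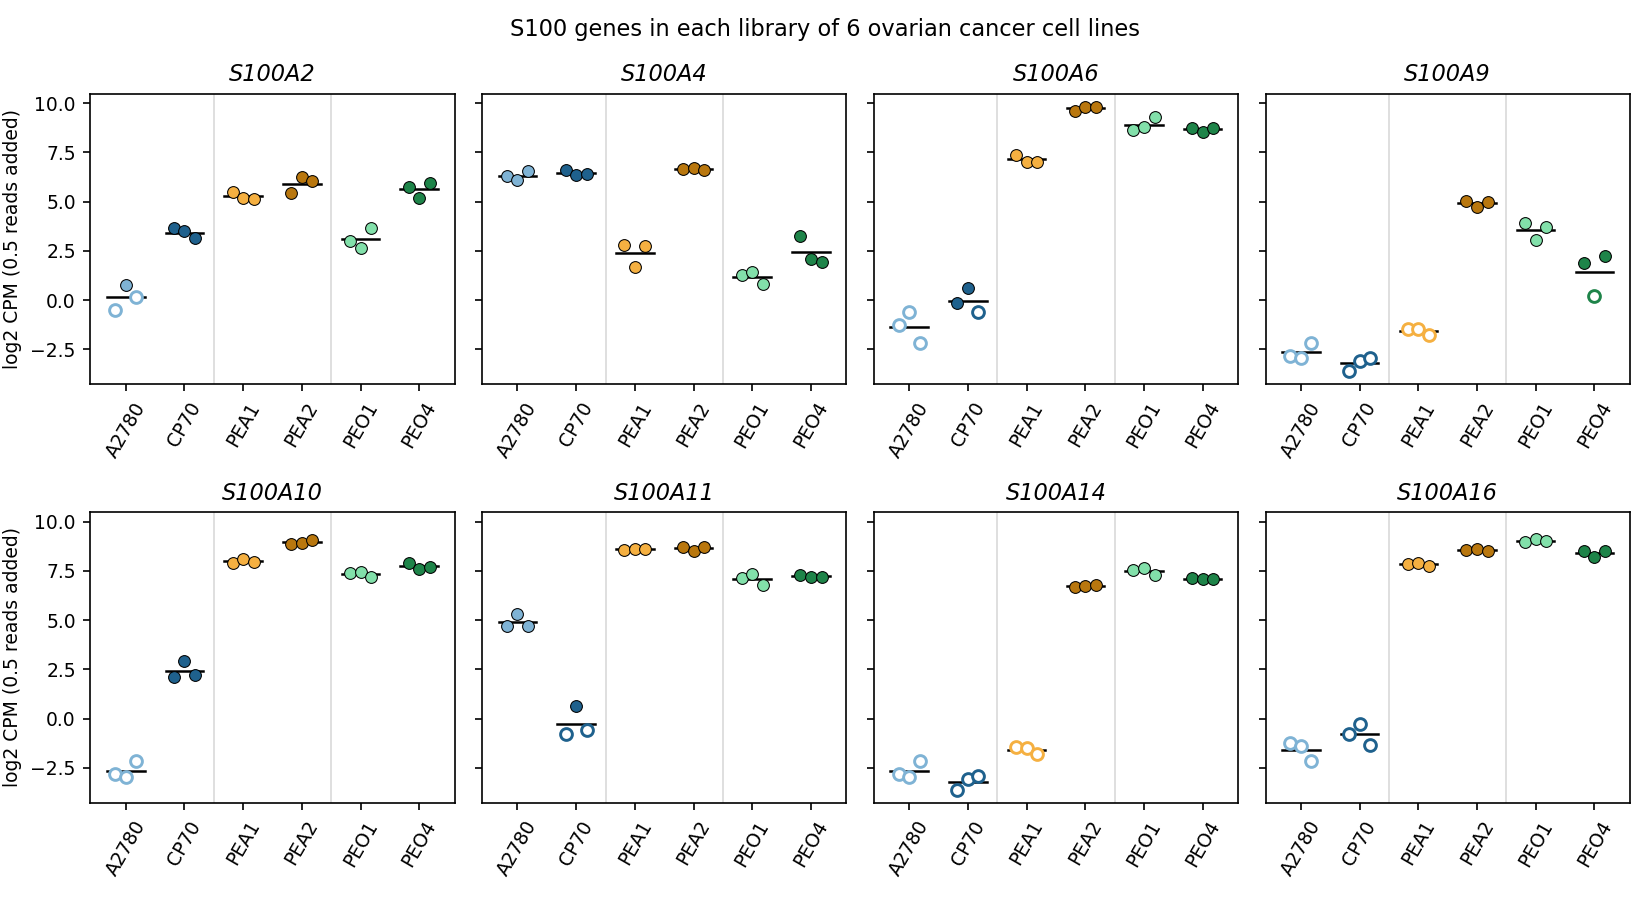
Deposited log2 CPM of each S100 gene (panels) in each of 18 libraries, grouped by line. Open circles are libraries with at most 3 reads, and bars are means of 3 libraries. S100A9 and S100A14 are at the floor in A2780, CP70 and PEA1, and S100A4 is the gene that is high in A2780 and CP70.

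S100A10 encodes p11, the partner of annexin A2 at the plasma membrane, and it had the widest range over the 6 line means, 11.60 on the log2 scale. In A2780 there were 0 reads in each of 3 libraries. The CP70 libraries held 26, 31 and 17 reads (log2 CPM 2.12, 2.90 and 2.20). CP70 was at least 5.44-fold higher than A2780, computed against 3 reads per library, and the fitted log2FC was 5.06 ± 0.20 (SE, FDR 4.33e-14). The 4 HGSOC lines were far above both. PEA1 libraries had log2 CPM of 7.91, 8.08 and 7.97, and PEA2 libraries 8.86, 8.93 and 9.07, without overlap (log2FC 0.97 ± 0.20, FDR 3.05e-04). PEO1 libraries lay at 7.41, 7.45 and 7.19, and PEO4 libraries at 7.90, 7.60 and 7.72. The PEO libraries did not overlap either, but the log2FC of 0.39 (95% interval -0.03 to 0.81) did not pass (FDR 0.128).

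S100A11, a partner of annexin A1 with roles in membrane repair and keratinocyte growth, did the opposite of its neighbour S100A10 in the A2780 pair. A2780 libraries had log2 CPM of 4.72, 5.30 and 4.71 (94, 152 and 58 reads), and CP70 libraries -0.80, 0.62 and -0.61 (3, 6 and 2 reads). The log2FC was -5.17 ± 0.25 (FDR 1.13e-12), and the lowest A2780 library was far above the highest CP70 library. Within the HGSOC pairs S100A11 was close to level. PEA1 had a mean of 8.61 ± 0.03 (SD, n = 3) and PEA2 of 8.64 ± 0.13, a log2FC of 0.03 with a 95% interval of -0.50 to 0.55. PEO1 had 7.09 ± 0.30 and PEO4 7.24 ± 0.04, a log2FC of 0.15 with an interval of -0.38 to 0.67. Libraries of both HGSOC pairs overlapped, and neither test passed (FDR 0.928 and 0.679).

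S100A6 (calcyclin), which binds annexins and the ubiquitin ligase adaptor CACYBP, was the most abundant S100 transcript per length in 3 lines. Its mean was 1980 RPKM (CPM per kb of reference transcript) in PEA2 (SD 149.8, n = 3), 1121 in PEO1 (SD 274.0) and 946 in PEO4 (SD 82). In PEA1, at 328 RPKM, it came after S100A11 and S100A10. The PEA1 libraries had log2 CPM of 7.39, 7.02 and 7.03, and the PEA2 libraries 9.62, 9.82 and 9.79, which did not overlap (log2FC 2.60 ± 0.30, FDR 2.87e-07). The PEO1 libraries (8.62, 8.81 and 9.28) overlapped the PEO4 libraries (8.76, 8.53 and 8.75), and the log2FC was -0.22 (95% interval -0.84 to 0.40, FDR 0.595). S100A6 was close to silent in A2780 and CP70, with 1, 2 and 0 reads against 5, 6 and 2. The ratio of summed reads was 2.97 for CP70 over A2780 with a 95% counting interval of 0.817 to 16.3, although the fit passed (log2FC 1.31, FDR 0.00144).

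S100A4 (metastasin), which binds non-muscle myosin and is known for its link to motility and metastasis, had another pattern across lines than the rest. It was high in A2780 (log2 CPM 6.29, 6.08 and 6.54), CP70 (6.60, 6.38 and 6.38) and PEA2 (6.67, 6.70 and 6.62). The other 3 lines were low, with 4 to 11 reads per PEA1 library, 7 to 11 per PEO1 library and 9 to 27 per PEO4 library. Per length it was the leading S100 gene of A2780 (154.9 RPKM) and CP70 (171 RPKM), and the last of PEO1 (4.19 RPKM). A2780 and CP70 libraries overlapped (log2FC 0.15, 95% interval -0.50 to 0.80, FDR 0.734). PEA1 libraries had log2 CPM of 2.79, 1.68 and 2.73, so PEA2 was higher without overlap (log2FC 4.27 ± 0.31, FDR 4.12e-10). PEO1 libraries (1.29, 1.42 and 0.79) lay below PEO4 libraries (3.25, 2.06 and 1.95), with a log2FC of 1.25 ± 0.31 (FDR 0.00278).

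S100A2, a p53-regulated S100 gene of basal epithelial cells, was the one member that passed both limits in the higher direction in 2 pairs. A2780 libraries held 2, 6 and 2 reads (log2 CPM -0.52, 0.75 and 0.16) and CP70 libraries 76, 47 and 33 (3.65, 3.49 and 3.14). The groups did not overlap, and the log2FC was 3.30 ± 0.32 (FDR 4.06e-08). PEO1 libraries had log2 CPM of 3.0, 2.65 and 3.65, and PEO4 libraries 5.77, 5.20 and 5.92, again apart (log2FC 2.53 ± 0.32, FDR 2.06e-06). PEA1 (5.48, 5.20 and 5.12) and PEA2 (5.46, 6.24 and 6.04) overlapped, with a log2FC of 0.65 (95% interval -0.01 to 1.31, FDR 0.0827). With quantile normalization the log2FC in the A2780 pair was 1.95, below the limit of 2, and 2 rather than 3 S100 genes passed both limits there. S100A2 was highest in PEA2, PEO4 and PEA1, and neighbours in that order overlapped.

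S100A9 encodes a subunit of calprotectin, the inflammatory S100A8/S100A9 complex that myeloid cells and stressed epithelia make. It had 0 reads in each library of A2780, CP70 and PEA1. PEA2 libraries held 61, 93 and 68 reads (log2 CPM 5.04, 4.75 and 4.97), which put PEA2 at least 15.0-fold above PEA1, with a fitted log2FC of 6.50 ± 0.46 (FDR 3.19e-10). The PEO pair went the other way. PEO1 libraries held 46, 23 and 86 reads (3.92, 3.07 and 3.70) and PEO4 libraries 10, 3 and 11 (1.86, 0.22 and 2.22), without overlap (log2FC -2.13 ± 0.46, FDR 9.16e-04). Without PEO1 replicate 1 or PEO4 replicate 2, 1 rather than 2 S100 genes passed both limits in this pair, S100A9 being the one lost.

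S100A14, an S100 gene of epithelial cells linked to invasion, gave the largest log2FC of any member in any pair. PEA1 libraries held 0 reads each, and PEA2 libraries 189, 374 and 237 (log2 CPM 6.66, 6.75 and 6.76). PEA2 was at least 52.4-fold higher, with a fitted log2FC of 8.31 ± 0.29 (FDR 1.40e-14). A2780 and CP70 also held 0 reads in every library, so no fold is given for them. In PEO1 (7.57, 7.66 and 7.28) and PEO4 (7.13, 7.07 and 7.08) the gene was well expressed. Every PEO4 library lay below every PEO1 library, but the log2FC of -0.41 (95% interval -1.02 to 0.20) did not pass (FDR 0.285).

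S100A16, a widely expressed S100 gene that starts close to S100A14, was high in PEA1, where S100A14 had 0 reads. PEA1 libraries had log2 CPM of 7.88, 7.91 and 7.74, and PEA2 libraries 8.58, 8.60 and 8.53 (log2FC 0.73 ± 0.22, FDR 0.00857). PEO1 libraries (8.98, 9.11 and 9.04) lay above PEO4 libraries (8.52, 8.19 and 8.51), with a log2FC of -0.64 ± 0.22 (FDR 0.0280). That call was lost without PEO1 replicate 1, 2 or 3 (FDR 0.053, 0.0822 and 0.0664), without PEO4 replicate 2 (0.119) and with quantile normalization (0.154). A2780 held 1, 1 and 0 reads and CP70 3, 3 and 1. The A2780 pair passed the FDR for S100A16 (0.00788) at these counts, its libraries overlapped, and no fold is given.

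Markers of cell identity moved with the S100 genes in the PEA pair. Of the 12 ovarian epithelial markers, 10 passed both limits as higher in PEA2 and 0 as lower, where 14.1% of all genes passed both. Their summed level was 440 to 593 CPM in PEA1 and 4281 to 4579 CPM in PEA2. KRT7, at 1 to 3 reads in PEA1, reached 1968 to 3913 reads in PEA2. PTPRC (CD45), the one gene in the table out of 11 myeloid markers, had 0 reads in every PEA1, PEO1 and PEO4 library and 20.1 to 25.1 CPM in PEA2. Of 9 fibroblast markers 6 were in the table. Their sum was 366 to 449 CPM in PEA1 and 3.45 to 6.4 CPM in PEA2, and 1 (COL1A1) passed both limits, as lower. The other 5 had at most 3 reads per PEA1 library. Of these COL1A2 was higher in PEA2 (log2FC 1.76, FDR 0.00748). THY1 was lower (log2FC -1.997, FDR 7.48e-04), with at most 3 reads in every library of both lines. In bulk RNA, a change in the share of cells of a kind and a change in RNA per cell cannot be told apart. The part of these differences in the results for S100A9, S100A14, S100A4 and S100A6 was not tested.

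Fewer of the epithelial markers, but more of the fibroblast markers, passed both limits in the other pairs. In CP70 the summed epithelial markers were 90.5 to 96.5 CPM, against 2.24 to 3.13 CPM in A2780. Of these markers 3 of 12 passed both limits as higher, where 9.06% of all genes passed both. The fibroblast markers were 512 to 724 CPM in A2780 and 899 to 1040 CPM in CP70, with 4 of 6 higher past both limits. In the PEO pair the epithelial sum was 7742 to 8765 CPM in PEO1 and 6300 to 8001 CPM in PEO4. Past both limits 1 epithelial marker was higher and 1 lower, where 6.22% of all genes passed both. The fibroblast sum was 154.4 to 174.2 CPM in PEO1 and 228.8 to 233.6 CPM in PEO4, with 2 markers higher past both limits. PTPRC did not pass in either pair, and it had 0 reads in every PEO1 and PEO4 library. The part of these markers in the S100 results was not tested.

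Added together, the 8 S100 genes were a small share of RNA in the A2780 pair and a larger one in the HGSOC lines. The summed level was 105.8 to 119.3 CPM in A2780 and 97.8 to 115.7 CPM in CP70, so the sum overlapped although 3 of its genes passed both limits. It was 1029 to 1078 CPM in PEA1 and 2330 to 2519 CPM in PEA2, without overlap. PEO1 libraries summed to 1424 to 1582 CPM and PEO4 libraries to 1179 to 1400 CPM. The gene at the head of the order per length changed with the line: S100A4 in A2780 and CP70, S100A11 in PEA1 (696 RPKM, SD 13), and S100A6 in PEA2, PEO1 and PEO4. S100A10 (378 RPKM) came after S100A11 in PEA1, and S100A16 (450 RPKM) came after S100A6 in PEO1.

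**Figure D3:**
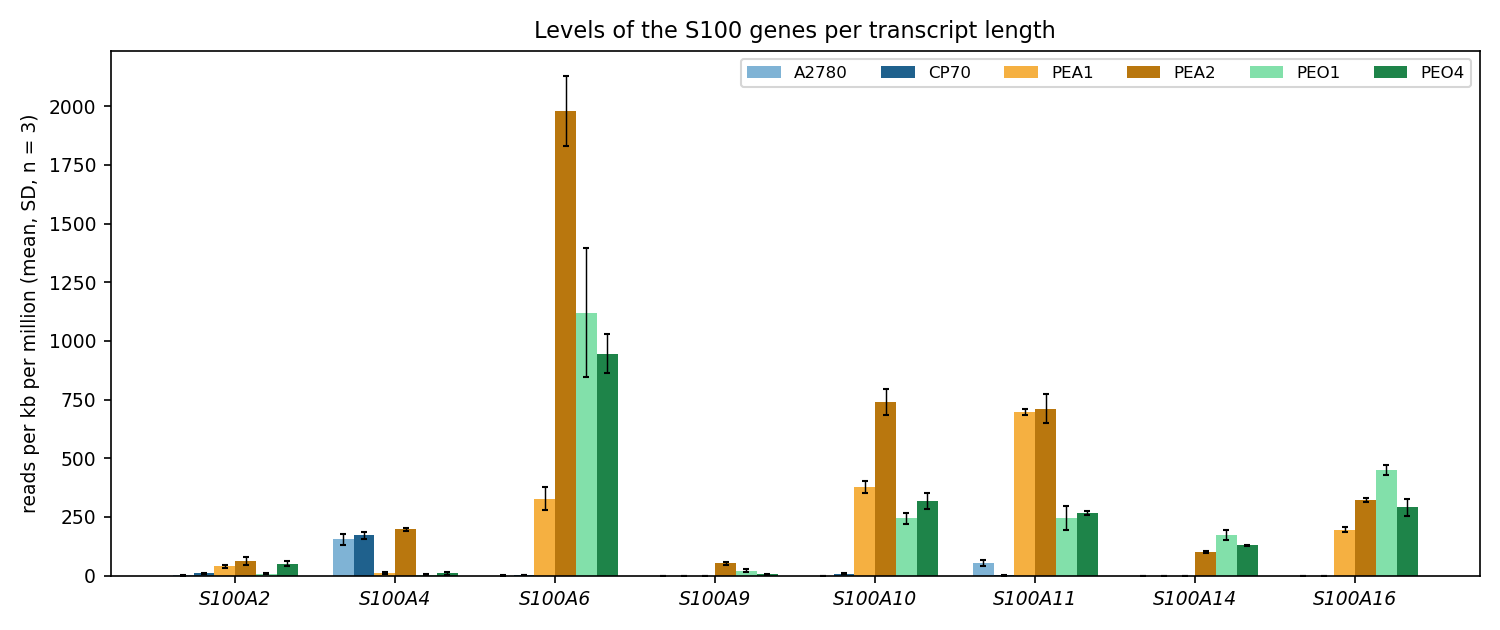
Mean RPKM (CPM per kb of reference transcript) of each S100 gene in each line, with SD bars, n = 3 libraries. S100A6 is the tallest in PEA2, PEO1 and PEO4 (1980, 1121 and 946 RPKM), and S100A4 is the tallest in A2780 and CP70 (154.9 and 171 RPKM).

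Whether the log2FC of a gene differed between pairs was tested directly. Between the PEA and A2780 pairs 7 of 8 S100 genes differed at an FDR below 0.05, where 57.5% of all genes did. Between the PEO and A2780 pairs it was 5 of 8 (47.5% of all genes), and between the PEO and PEA pairs 6 of 8 (58.7%). These differences share pairs and are not independent of each other. The log2FC of S100A10 was lower in the PEO pair than in the A2780 pair (difference -4.67, FDR 5.25e-11), and S100A14 differed by -8.72 between the PEO and PEA pairs (FDR 1.89e-12). S100A2 did not pass between the PEO and A2780 pairs (difference -0.76, 95% interval -1.70 to 0.17, FDR 0.171).

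A linear model over all 18 libraries, with the pair and the sensitivity as terms, passed 4 of 8 S100 genes, each higher in resistant lines, against 24.1% of all genes. They were S100A2 (log2FC 2.16, FDR 2.91e-04), S100A10 (2.14, FDR 0.00733), S100A4 (1.89, FDR 0.00769) and S100A6 (1.23, FDR 0.0140). Over the single pairs S100A2 and S100A4 were higher in 2 pairs and lower in 0, as were S100A6 and S100A10. This model treats libraries as replicates. With the 3 pair differences as replicates 0 of 8 passed in limma, and 1 of 8 at an unadjusted p below 0.05. The smallest FDR among the 8 was 0.980. The share of all genes that passed was not taken for this fit, so the count is not read as a trait of the S100 genes.

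Among 29 partners and receptors of S100 proteins, 26 had a row in the table. In the A2780 pair 11 were higher and 3 lower at an FDR below 0.05 (39.9% of all genes passed in either direction), and 6 were higher and 0 lower past both limits (9.06% of all genes). In the PEA pair the numbers were 10 and 8 (61.9%), and 4 and 2 past both (14.1%). In the PEO pair they were 6 and 5 (41.5%), and 1 and 0 past both (6.22%). The medians of the 26 log2FC were 0.10, 0.04 and 0.11.

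The annexin partners of S100A10 and S100A11 were among those that differed in CP70. ANXA2, which forms a tetramer with S100A10, had log2 CPM of 5.18, 5.15 and 5.26 in A2780 and 7.06, 6.96 and 6.96 in CP70 (log2FC 1.80 ± 0.18, FDR 8.87e-08). AHNAK, a giant scaffold protein that the tetramer holds at the membrane, had 8.07, 7.60 and 7.89 in A2780 and 11.25, 10.88 and 11.17 in CP70 (log2FC 3.24 ± 0.13, FDR 6.24e-14). S100A10, ANXA2 and AHNAK were thus each higher in CP70 without overlap. ANXA1, the partner of S100A11, gave the largest difference of the list there, with 5, 14 and 11 reads in A2780 and 14418, 9479 and 8672 in CP70 (log2FC 9.54 ± 0.26, FDR 9.72e-17). S100A11 was lower in the same comparison.

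AHNAK went the other way from S100A10 in the PEA pair, and ANXA2 did so on average only. S100A10 was higher in PEA2. AHNAK was lower there (log2FC -0.65, FDR 2.53e-04), with log2 CPM of 11.88, 11.80 and 11.74 in PEA1 and 11.06, 11.26 and 11.16 in PEA2. ANXA2 was lower in the fit (log2FC -0.61, FDR 0.00703), but its libraries overlapped. They lay at 10.29, 9.02 and 9.72 in PEA1 and at 8.95, 9.11 and 9.15 in PEA2. The annexin ANXA1 did not pass in PEA2 (log2FC 0.57, FDR 0.0614). None of the 3 passed in the PEO pair, where the log2FC was 0.11 for ANXA2, 0.07 for AHNAK and 0.03 for ANXA1 in limma (FDR 0.665, 0.708 and 0.939). PLAT, tissue plasminogen activator, whose activity the S100A10 complex is known to promote at the cell surface, gave the largest difference of the list in both HGSOC pairs. Its mean log2 CPM was 5.26 ± 0.65 in PEA1 and 10.43 ± 0.05 in PEA2 (SD, n = 3; log2FC 5.16, FDR 4.12e-09), and 2.16 ± 0.82 in PEO1 and 5.77 ± 0.20 in PEO4 (log2FC 3.61, FDR 1.47e-06).

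**Figure D4:**
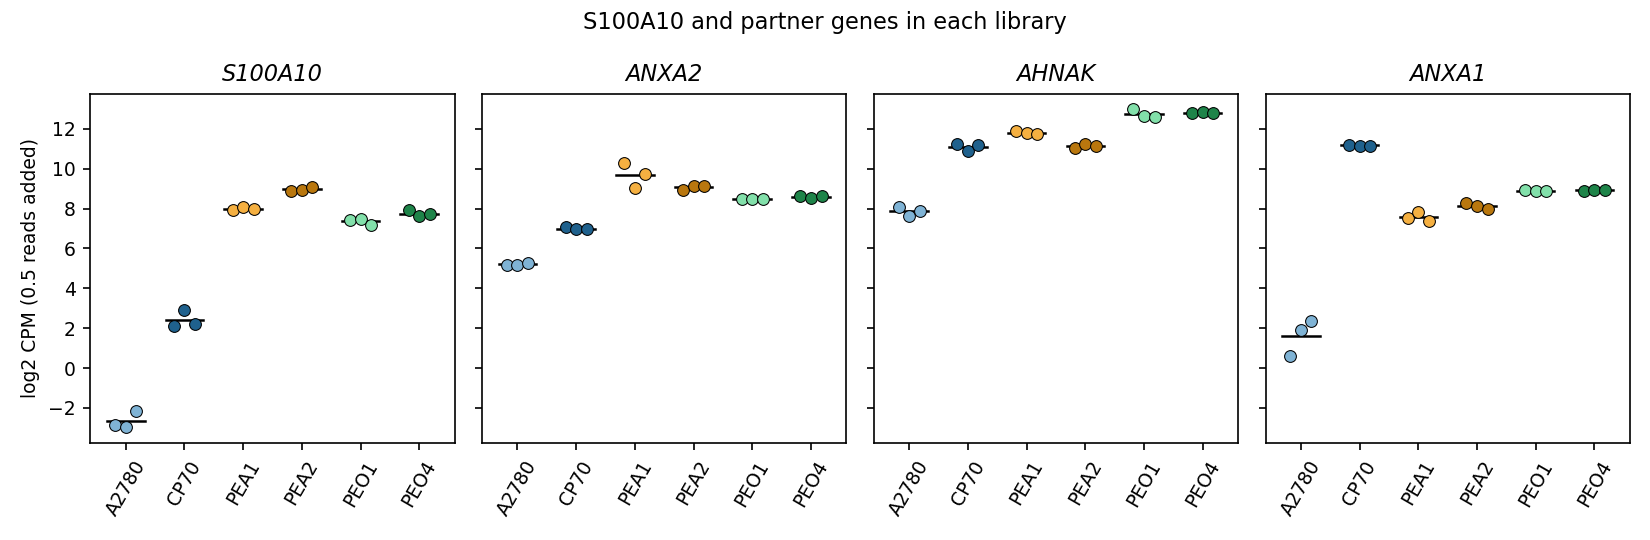
Log2 CPM of S100A10 and the partner genes ANXA2, AHNAK and ANXA1 in each of 18 libraries, with bars at the mean of 3 libraries. All 4 genes are higher in CP70 than in A2780, with ANXA1 at 11.16 on average in CP70, above its level in the 4 HGSOC lines.

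Of 19 further genes listed as relatives of the S100 family, 3 had a row: S100A13, FLG and S100PBP, the last encoding a protein that binds S100P. FLG (filaggrin), whose protein begins with an S100-like calcium-binding part, passed both limits in every pair. It had 1 to 2 reads per library in A2780 and 6 to 24 in CP70, a ratio of summed reads of 7.54 (95% counting interval 2.75 to 28.9), with a fitted log2FC of 2.34 (FDR 5.49e-05). Its level was 7.86 ± 0.16 in PEA1 and 0.71 ± 0.54 in PEA2 (log2FC -7.15, FDR 5.90e-12), and 7.11 ± 0.07 in PEO1 and 5.02 ± 0.27 in PEO4 (log2FC -2.09, FDR 2.06e-04). FLG therefore fell in PEA2 where S100A14 and S100A9 rose. S100A13, a gene for an S100 protein of unconventional secretion, was between 5.14 and 6.53 log2 CPM in every library. It did not pass the log2FC limit in any pair. At the FDR alone it was higher in PEA2 (log2FC 0.96, FDR 1.08e-05) and lower in PEO4 (log2FC -0.38, FDR 0.0411).

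The neighbourhood of the S100 genes was read from the other genes of the table that start within 1 Mb of their span on chromosome 1, 48 in number. These 48 include S100A13, an S100 gene that is not a listed member. In the A2780 pair 41.7% of them passed the FDR and 4.17% both limits. In the PEA pair it was 60.4% and 14.6%, and in the PEO pair 35.4% and 4.17%. These shares lie beside 39.9%, 61.9% and 41.5% of all genes for the FDR, and 9.06%, 14.1% and 6.22% for both limits. In the PEA pair 8 neighbours were higher and 21 lower at an FDR below 0.05, with a median log2FC of -0.26.

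Single neighbours also differed strongly. The highest log2FC past both limits was 5.43 for IL6R, an interleukin-6 receptor gene, in the A2780 pair, where A2780 held 1, 0 and 1 reads and CP70 76, 60 and 61. In the PEA pair it was 6.62 for SPRR2A, a small proline-rich protein of the epidermal differentiation complex, with 0 reads in each PEA1 library and 66 to 107 in PEA2. In the PEO pair it was 4.26 for ATP8B2, a phospholipid flippase gene, at 3, 3 and 15 reads in PEO1 and 94, 80 and 65 in PEO4. FLG was the lowest in the PEA and PEO pairs, and 0 neighbours were lower past both limits in the A2780 pair in limma, where 9 were lower at an FDR below 0.05. Within the span itself the table held 4 genes that are not S100 genes: FLG-AS1, FLG, IVL and SPRR2A.

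**Figure D5:**
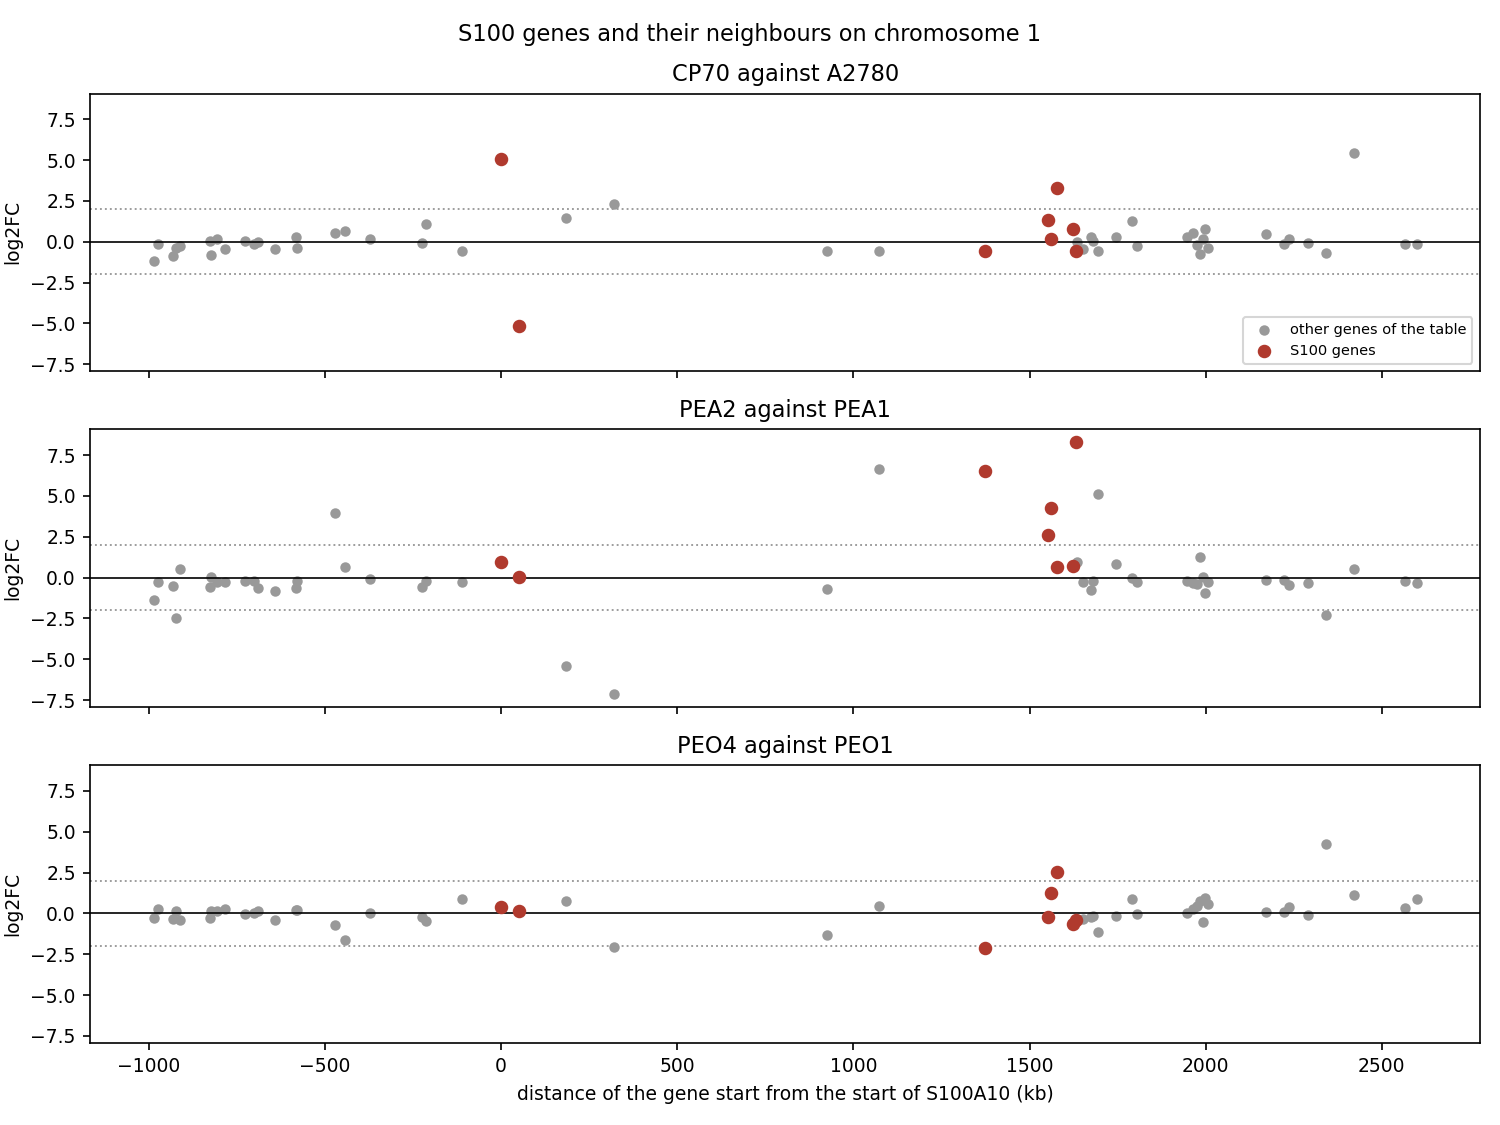
Log2FC of the 8 S100 genes (red) and 48 other genes (grey) by distance in kb of the gene start from that of S100A10. There is a panel per pair, with dotted lines at -2 and 2, and the grey points include S100A13. S100A10 and S100A11 part in CP70 against A2780 (5.06 and -5.17), and in PEA2 against PEA1 several S100 genes stand high while most grey points lie near 0.

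Likeness of pattern was measured with Pearson's r of the log2 values over 18 libraries, as a description, since libraries of 1 line share that line. S100A16 was closest to S100A6 of all genes in the table (r = 0.990), followed by CAV1 (0.989) and CDK14 (0.987). S100A10 was most like JAK1 (0.989), MVP (0.988) and DSG2 (0.987). Each of these genes was lower in A2780 and CP70 than in the HGSOC lines: CAV1, for example, had line means of 3.31 and 3.32 log2 CPM in A2780 and CP70, and 8.50 to 9.36 in the others. Among the S100 genes, S100A14 and S100A9 had an r of 0.929, and S100A4 had negative values with each other member, down to -0.66 with S100A16.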

How the data were processed

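RNA-seq was analysed for 18 libraries, 3 per line. Per the labels and the paper's methods, reads were aligned to hg19 with Bowtie2, assigned to genes with featureCounts and normalized with limma; the strand setting of the counting is not given in the sources used here. The deposited log2 values are CPM with 0.5 reads added and a scaled library size, for 12853 genes. Whole reads were recovered from 100% of the values (tolerance 0.01 reads) and gave the depth, the floor of 3 reads and RPKM over the reference transcript. The ATAC-seq and Pt-exo-seq data were not used here. The 10 members and the gene lists were chosen with earlier results of these data known.

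The log2 values were fitted with limma 3.58.1 in R 4.3.3 (1 mean per line, 18 libraries, a trend of variance with expression), Benjamini-Hochberg over 12853 genes. Differences between pairs were contrasts of the same fit. FDR in the text is limma's adjusted p. Members were called at an FDR below 0.05, or also at an absolute log2FC above 2, the thresholds stated for the study. P-values measure the spread between these libraries, which may be technical. Low values were not filtered further, which leaves genes near 0 reads in the fit.

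Named genes were the members, relatives of the S100 family past both limits, ANXA1, ANXA2, AHNAK and the partner with the largest difference in each pair, the extreme neighbours within 1 Mb, the 3 genes most like S100A6 and S100A10, and the other relatives as counts. S100A13, S100PBP, EPCAM, KRT7, KRT19, MSLN, SOX17, COL1A1, COL1A2, THY1 and the genes inside the span were named after their values were seen. Spans came from GENCODE for GRCh37 (12642 of 12853 genes matched, 211 not), promoters from RefSeq. Simulated data for the A2780 pair with 200 of 12853 genes changed returned 200 of 200, with 0 other genes past both limits and 8 past the FDR alone. The changed genes were drawn from those with a higher mean level and were given large folds. All lines shared the same base level and a fixed spread between replicates. A change from a line with 0 reads, or replicates as uneven as those of PEO1, was therefore not tested. Alternatives were another normalization, 2 reads added, a filter on low means, voom weights, no trend, each pair fitted alone, a log2FC limit of 1, a replicate block, pair differences as replicates, and each library left out in turn.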

Additional observations from a re-analysis of the deposited data

Results flagged for a closer look

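Of 24 differences in log2FC between 2 pairs, 18 passed an FDR of 0.05 (limma contrasts in the fit of 18 libraries). Of all genes, 57.5% passed for PEA minus A2780, 47.5% for PEO minus A2780 and 58.7% for PEO minus PEA. The count is therefore not read as a trait of the S100 genes. Each difference is listed because the same comparison of resistant with sensitive gave unlike results in 2 pairs. The PEA pair differed from the A2780 pair for S100A2 by -2.65, S100A4 by 4.12, S100A6 by 1.29, S100A9 by 7.05, S100A10 by -4.09, S100A11 by 5.20 and S100A14 by 8.86 (log2FC in the first pair minus that in the second). The values of S100A9, S100A14 and S100A10 rest on lines with 0 reads and depend on the 0.5 reads added, in each contrast that holds such a line. The PEO pair differed from the A2780 pair for S100A4 by 1.10, S100A6 by -1.53, S100A10 by -4.67, S100A11 by 5.32 and S100A16 by -1.43, of which S100A4 had the FDR nearest the limit (0.045). The PEO pair differed from the PEA pair for S100A2 by 1.88, S100A4 by -3.02, S100A6 by -2.82, S100A9 by -8.63, S100A14 by -8.72 and S100A16 by -1.36. S100A6 and S100A16 in the A2780 pair had at most 6 and 3 reads per library, so their differences from that pair are of few reads. In S100A9, PEO1 held more reads than PEO4 while PEA2 held more than PEA1, a difference of sign between these pairs in every library.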

How the results depend on the processing

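In the A2780 pair 5 S100 genes passed the FDR, and 3 did with the pair fitted alone, with quantile normalization or with voom weights; S100A6 and S100A16, both near 0 reads, were lost. In the PEO pair 2 passed both limits, and 1 with 2 reads added, or in a range of 1 to 2 when each library was left out (1 without PEO1 replicate 1 or PEO4 replicate 2). The linear model went from 4 genes to 1 (S100A2) with a replicate block and to 0 with pair differences as replicates. Same-numbered libraries deviated together little on average (mean correlations of 0.0942, -0.0307 and 0.0167 in the A2780, PEA and PEO pairs). Replicates 1 and 2 of the A2780 pair gave 0.220 and 0.144, and replicate 3 gave -0.0814. With 3 libraries per line this cannot decide whether the replicate numbers pair the libraries. In the replicate block the counts within pairs were again 5, 6 and 4 for the FDR. S100A11 changed sign around 0 in the PEA pair, at -0.2043 with quantile normalization and between -0.01052 and 0.1029 with libraries left out, and in the PEO pair between -0.01803 and 0.2809. Over 488 alternatives for 32 gene values, 451 kept direction and side of the threshold, 22 lost the call, 11 gained it and 4 changed sign, and 155 of 163 counts stayed within 1.5 times. S100A16 lost its call with quantile normalization in the PEA pair (FDR 0.203) and in the PEO pair (0.154), where it also did without each of the PEO1 libraries or PEO4 replicate 2. In the PEO pair S100A10 and S100A14 gained a call with that pair alone (FDR 0.00396 and 0.00272) and with voom weights (0.00191 and 0.00139), and S100A10 also with quantile normalization (0.0272). Quantile normalization moved the median log2FC of all genes in the PEA pair from 0.01 to -0.10. The cause of these changes was not tested. Depth limits genes for which the libraries of at least 1 line of a pair held few or 0 reads. In the A2780 pair these are S100A2, S100A6, S100A9, S100A10, S100A11, S100A14 and S100A16. In the PEA pair they are S100A4, S100A9 and S100A14, and in the PEO pair S100A4 and S100A9. With 2 reads added the log2FC of S100A10 in the A2780 pair was 3.15, and those of S100A9 and S100A14 in the PEA pair were 4.53 and 6.32.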
